A study of Mus musculus with 31 samples.

Results

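The distribution of messenger RNAs between heavy polysomes and ribosomal subunits or single ribosomes was read from neocortex of wild-type (WT) mouse embryos at embryonic day 13 (E13). Lysates were separated by size on a sucrose gradient, and RNA from the fractions that hold heavy polysomes was set against RNA from the fractions that hold ribosomal subunits and single ribosomes. The comparison rests on 4 libraries of the 31 in the series, chosen by their labels of genotype, age and fraction: polysome 0 and polysome 1 against monosome 0 and monosome 1. The series also holds WT neocortex at birth (P0), total RNA at both ages, and E13 and P0 neocortex whose labels name a conditional knockout (cKO) for HuR. HuR is an RNA-binding protein, and its gene is Elavl1. No group received a treatment beyond cycloheximide at 0.1 mg/ml, which was added to the lysis buffer of every group, and the labels give no mouse strain, no Cre driver and no number of pooled embryos. They allow fresh or frozen tissue and gradients of 2 sizes without saying which library used which. They do not say that libraries 0 and 1 came from separate animals or litters. The p-values therefore cover only how far libraries of a group spread, which may be technical. For differences within WT that spread was estimated jointly from all 15 WT libraries, P0 and total RNA included.

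Ribosomes load onto an mRNA one after another, so an mRNA that is initiated often carries many ribosomes and sediments deep in the gradient. An mRNA that is stored, repressed or rarely initiated sediments less deeply. So does a non-coding RNA or an mRNA whose coding region is too short to hold many ribosomes, even while a single ribosome translates it. Cycloheximide arrests elongating ribosomes so that polysomes do not run off during lysis. In the embryonic neocortex, which at this age is made up mostly of dividing progenitors and young neurons, such control shapes which of the transcribed genes are made into protein.

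From 14 gradient fractions the labels assign 4 to 7, the region of the small and large subunits and the single ribosome, to the monosome RNA, and 9 to 12 to the polysome RNA. Fractions outside these ranges, the lightest ones included, are in neither, so mRNAs free of ribosomal subunits may be missed. The contrast is therefore not one of translated against untranslated mRNAs. Poly(A) RNA was sequenced. The values are FPKM, fragments per length of transcript and per sequencing depth, and differences were taken on log2(FPKM + 1), where a difference of 1 is a 2-fold change of a well-expressed gene and less than that is seen of a low one. The 2 monosome libraries summed to 859580 and 916801 FPKM and the 2 polysome libraries to 627330 and 455546 FPKM, with 14943 to 16061 genes above 0. Genes of ribosomal proteins took 36.8% and 50.1% of the FPKM in monosome 0 and 1 and 19.7% and 13.2% in polysome 0 and 1. Across genes, replicate libraries correlated at a Pearson r of 0.958 (monosome) and 0.960 (polysome), and a monosome with a polysome library at 0.808 to 0.852. Only FPKM were used, and the number of fragments behind them is unknown.

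Of 12123 genes tested, 3951 were higher in polysome RNA and 2515 lower (limma, Benjamini-Hochberg adjusted p under 0.05), which is 32.6% and 20.7%, or 53.3% in all. The difference passed the test for more genes than not, so every count of a gene group below is to be read against these shares. The median difference of all genes was 0.24, with quartiles of -0.49 and 0.92, and the median standard error (SE) was 0.27. Both polysome libraries lay above both monosome libraries for 5011 genes (41.3%) and below both for 3167 (26.1%). When libraries were rescaled to a common median ratio, the median of all genes shifted by -0.20 to 0.03, and 3005 genes were higher and 3080 lower, so that 49.4% of the calls were higher against 61.1% on the deposited scale. In what follows ± is the SE of a difference, with 2 libraries a fraction in WT E13. For differences within WT its spread came from all 15 WT libraries. A fit of the 4 libraries alone called 2708 genes higher and 1782 lower of 11665 tested. For each gene named as higher or lower at E13, both polysome libraries lay on the same side of both monosome libraries. Where a group has no called member in a direction, none passed an unadjusted p under 0.05 in that direction either (limma), except 1 lower axon guidance gene and 1 higher ion channel gene. Group medians are given to be compared with the 0.24 of all genes and not with 0.

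**Figure D1:**
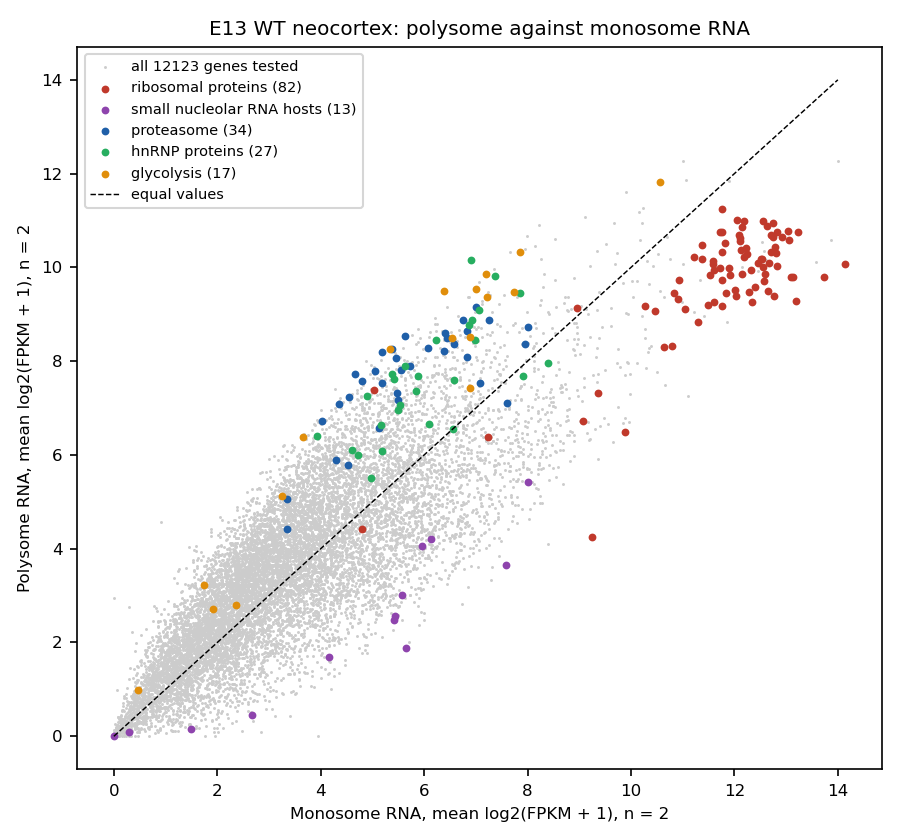
Mean log2(FPKM + 1) of the 2 monosome libraries (x axis) against that of the 2 polysome libraries (y axis) in E13 WT neocortex, 1 point per gene, with 5 gene groups coloured and the dashed line at equal values. The 82 ribosomal protein genes, among the highest in monosome RNA, lie almost all below the line, and the 34 proteasome and 17 glycolysis genes lie almost all above it.

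Among genes with the largest positive differences, mRNAs of RNA-binding proteins, proteasome subunits and glycolytic enzymes recurred. Hnrnpa2b1, an RNA-binding protein of splicing and mRNA transport, had 138 and 103 FPKM in monosome 0 and 1 and 1279 and 1019.8 FPKM in polysome 0 and 1. The polysome libraries were about equally high and far above both monosome libraries, a log2 difference of 3.25 ± 0.24 (adjusted p = 4.73e-07). The gene has 12 exons at chr6:51461124-51469845 (GRCm38, GENCODE M21). Akr1b3, an aldose reductase, had the largest value, 3.65 ± 0.77 (adjusted p = 0.000915), but was listed at 0 in monosome 0 and at 2.51 FPKM in monosome 1, against 23.6 and 21.6 FPKM in the polysome libraries. Maged1, a protein of neuronal differentiation and apoptosis, stood at 45.1 and 50.8 FPKM in monosome RNA and 372 and 377 FPKM in polysome RNA (2.94 ± 0.23). Rrp1, a ribosome biogenesis factor, differed by 3.14 ± 0.25, Aamp by 3.14 ± 0.27, and Eif4a3, the RNA helicase of the exon junction complex, by 2.95 ± 0.32. Ruvbl1, an AAA+ ATPase of chromatin and assembly complexes, differed by 2.94 ± 0.31, and the splicing factors Smu1 and Rbm42 by 2.94 ± 0.29 and 2.92 ± 0.31. Cdc45, part of the replicative helicase, had 7.75 and 6.22 FPKM in the monosome libraries and 83.6 and 41.9 FPKM in the polysome libraries (2.92 ± 0.26, adjusted p = 1.06e-06). The 2 polysome libraries of Cdc45 differed from each other more than those of Maged1, yet both stood far above the monosome libraries.

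Genes with the largest negative differences encoded short proteins or no protein. Mzt1, a microtubule nucleation factor of 78 residues, fell from 110.4 and 221 FPKM in monosome 0 and 1 to 12.3 and 6.61 FPKM in polysome 0 and 1 (-3.97 ± 0.34, adjusted p = 8.71e-07). Bola3 and Bola2, small proteins that take part in iron-sulfur cluster handling, were lower as well. Bola3 had 112 and 116 FPKM in monosome RNA and 11.7 and 5.49 FPKM in polysome RNA (-3.66 ± 0.27), and Bola2 differed by -3.44 ± 0.35. Sepw1, a selenoprotein of 88 residues, differed by -3.84 ± 0.40, Pkig, an inhibitor of protein kinase A, by -3.44 ± 0.33, and Cnih2, an auxiliary protein of AMPA receptors, by -3.59 ± 0.37. H19, an imprinted non-coding RNA at chr7:142575529-142578143, had 187 and 603 FPKM in monosome RNA and 25.9 and 9.96 FPKM in polysome RNA (-4.29 ± 0.52, adjusted p = 8.02e-06). Its monosome libraries differed from each other more than those of most genes named here, yet both stood far above the polysome libraries. Rps27 had the largest value of all, -4.99 ± 1.65 (adjusted p = 0.0185), but it rested on polysome 1 (0.469 FPKM, against 247.6 FPKM in polysome 0 and 432 and 847 FPKM in the monosome libraries). Without polysome 1 it was -1.28 (adjusted p = 0.422), and without monosome 1 it was -4.50 (adjusted p = 0.0917).

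**Figure D2:**
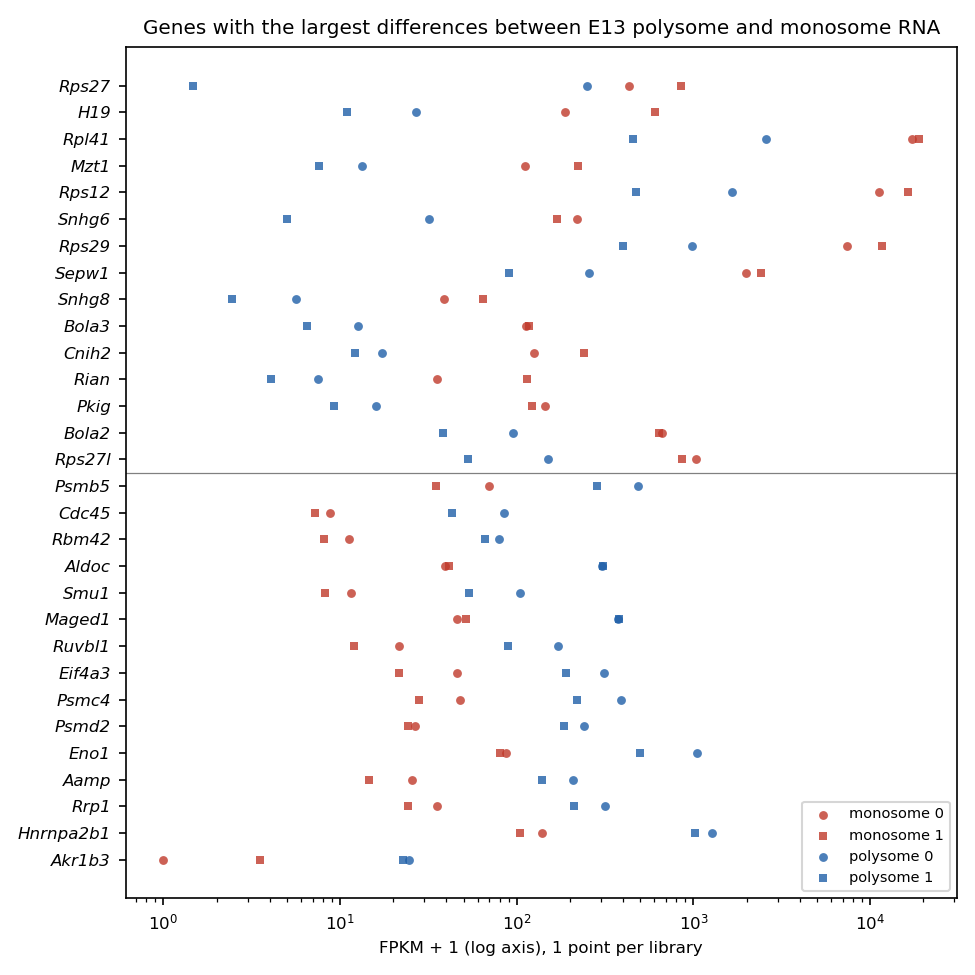
FPKM + 1 on a log axis, 1 point per library, for the 15 genes with the largest negative (top) and the 15 with the largest positive (bottom) log2 difference among genes that kept their direction without each library. Red points are monosome and blue points polysome libraries, circles library 0 and squares library 1; in each row the colours do not overlap, and Rps27 at the top shows the polysome library that decides its value.

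The protein-making machinery was divided between the fractions. All 33 tested genes of the small ribosomal subunit and 45 of 49 of the large one were lower in polysome RNA, with median differences of -2.10 and -1.97. Pairs of values below give library 0 before library 1 and, around "against", monosome before polysome RNA. Rps12 had 11237 and 16353 FPKM in monosome 0 and 1 and 1654 and 472 FPKM in polysome 0 and 1, and Rps29 had 7419 and 11704 FPKM in monosome and 983 and 399 FPKM in polysome RNA. Rpl41, whose product of 25 residues is the shortest of the ribosome, stood at 17356 and 18944 FPKM in monosome and 2588 and 451 FPKM in polysome RNA (-4.07 ± 0.55). Polysome 1 was the lower of the 2 polysome libraries for each of these 3 genes. Among the stalk proteins, Rplp0 (317 residues), Rplp1 and Rplp2 differed by -2.87 ± 0.35, -3.16 ± 0.36 and -3.07 ± 0.40, and Rpl12, which sits at the base of the stalk, by -2.80 ± 0.32. The exceptions were Rpl26, higher in polysome RNA at 46 and 21.5 against 186 and 147 FPKM (2.35 ± 0.37), and Rpl7a, Rpl34 and Rpl36al, which did not pass the test (-0.50, -0.38 and 0.17); these 4 were chosen after their values were seen. Ribosomal protein genes have many near-identical processed copies in the genome, so values of single members, low ones such as Rpl26 and Rpl34 above all, are uncertain. Quantile normalization left 18 and 25 of the genes lower, 8 of the large subunit being higher, and a fit of the 4 libraries alone left 19 and 25 lower. Under quantile normalization the medians were -0.65 and -0.71, so the size of these differences depends on the scaling.

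Other mRNAs known to begin with a terminal oligopyrimidine tract (TOP), the stretch of pyrimidines at the cap through which mTOR signalling controls their translation, moved in both directions. Of 18 tested, 11 were lower, 2 higher and 5 not called, and the median was -0.99. Pabpc1, the poly(A)-binding protein, went from 543 and 1198 FPKM in the monosome libraries to 78.6 and 73.8 FPKM in the polysome libraries (-3.39 ± 0.31, adjusted p = 1.08e-06). Tpt1, the translationally controlled tumour protein, stood at 11515 and 19438 FPKM in monosome and 2303 and 1021 FPKM in polysome RNA (-3.29 ± 0.37), and Gnb2l1 (Rack1), a protein of the small subunit surface, at 4021 and 5096 FPKM in monosome and 1318 and 793 FPKM in polysome RNA (-2.15 ± 0.29). These 3 differences were as large as the ribosomal protein medians or larger, and the proteins are not all short: Pabpc1 has 636 residues. The elongation factors Eef1a1, Eef1b2, Eef1g and Eef2 differed by -1.72 ± 0.29, -2.13 ± 0.33, -1.60 ± 0.32 and -1.74 ± 0.34, and the initiation factors Eif3f and Eif4b by -1.78 ± 0.35 and -0.89 ± 0.23. Eef1d (1.37 ± 0.31), the exchange factor subunit, and Npm1 (1.02 ± 0.27), a nucleolar chaperone, were higher, the latter not without polysome 0 (0.71, adjusted p = 0.0536). Vim, Btf3, Naca, Hnrnpa1 and Nap1l1 had values of 0.58, 0.38, -0.41, 0.14 and -0.02 and did not pass the test. Quantile normalization gave 5 higher and 8 lower. It ended the calls of Eef1a1 (-0.10, limma adjusted p = 0.726) and Eef2 (-0.75, adjusted p = 0.11) and made Btf3 (1.17), Vim (0.98) and Naca (0.57) higher. A fit of the 4 libraries alone left 5 lower and none higher.

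The start sites of 6 mRNAs of these groups and of 3 mRNAs that were strongly higher in polysome RNA show what the tract looks like and that it is not found at each annotated start. Windows run from 10 bases before the annotated RefSeq start to 19 bases after its first base (GRCm38.p6), and capitals mark every stretch in the window of a C followed by at least 4 pyrimidines (C or T). Of the 2 starts of Hnrnpa2b1 and the 3 of Eno1, 1 is shown, that with such a stretch nearest to the start where a gene has any within 10 bases; the other genes have 1 start.
Rps12: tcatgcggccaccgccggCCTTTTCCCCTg
Gnb2l1: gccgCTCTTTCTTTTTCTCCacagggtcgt
Eef1a1: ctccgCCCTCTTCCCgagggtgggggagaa
Nap1l1: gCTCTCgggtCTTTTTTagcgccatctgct
Rpl41: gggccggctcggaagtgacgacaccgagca
Tpt1: cgctgacgacagttccgggggagccgcgga
Hnrnpa2b1: ctccagcggcagtagcagcggcgccggtcc
Psmc4: ccaagatgctctatgtgaaggaCTTCCgtt
Eno1: ccccaCCCCCacccaattccacgcgggagt
These windows lie at chr10:23787190-23787219 (minus strand) for Rps12, chr11:48800350-48800379 (plus strand) for Gnb2l1, chr9:78481705-78481734 (minus strand) for Eef1a1, chr10:111473217-111473246 (plus strand) for Nap1l1, chr10:128549149-128549178 (minus strand) for Rpl41, chr14:75845246-75845275 (plus strand) for Tpt1, chr6:51469826-51469855 (minus strand) for Hnrnpa2b1, chr7:28050073-28050102 (minus strand) for Psmc4 and chr4:150236698-150236727 (plus strand) for Eno1. In Gnb2l1 and Eef1a1, both lower, a stretch begins 6 and 5 bases before the annotated start and runs across it, and in Rps12, also lower, one begins 8 bases after it. Nap1l1 has a stretch that begins at the start itself and another 9 bases before it, and stood at 433 and 722 FPKM in monosome and 612 and 499 FPKM in polysome RNA. Rpl41 and Tpt1, both strongly lower, have no such letters in the window, nor has Hnrnpa2b1, strongly higher. Of the other two higher mRNAs, Eno1 has a stretch 5 bases before its start and Psmc4 one 12 bases after it.

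Over all genes these letters were weakly related to the fraction. A RefSeq start was found for 9621 of the tested genes, and a C with at least 4 pyrimidines stood exactly at a start of 90 of 2039 genes lower in polysome RNA (4.41%), 72 of 3174 higher (2.27%) and 128 of 4408 not called (2.9%). Without ribosomal protein genes the share among lower genes was 3.83%. Of 61 ribosomal protein genes with a start, 14 (23%) had the letters at it and 37 (60.7%) within 10 bases. Of all 32851 RefSeq starts, 2.51% had the letters at the start and 30.7% within 10 bases of it, where the shares were 37.4% for lower and 36.3% for higher genes. A gene was counted if any of its starts had the letters, which were searched on the strand of the gene. These shares are descriptions of annotated starts, which need not be the starts used in this tissue.

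Enzymes and assembly factors that serve translation lay on the opposite side from the ribosome's own proteins. Of 20 cytosolic aminoacyl-tRNA synthetases, which charge tRNAs with their amino acids, 17 were higher in polysome RNA and 1 lower, with a median of 1.80. Aars went from 4.88 and 5.85 FPKM in monosome 0 and 1 to 33.1 and 32.1 FPKM in polysome 0 and 1 (2.40 ± 0.19), Farsa from 16.9 and 15.6 to 111 and 78.2 FPKM (2.45 ± 0.22), and Hars and Yars differed by 2.74 ± 0.26 and 2.73 ± 0.25. Qars, the glutaminyl enzyme, was the lower one at 68.4 and 90.7 against 41.4 and 34.2 FPKM (-1.05 ± 0.22, adjusted p = 0.000944). Of 30 ribosome biogenesis factors 19 were higher and 1, Nhp2, lower (-0.85 ± 0.33), with a median of 1.10. Nhp2 was not called without monosome 0 (-0.50, adjusted p = 0.292) or polysome 1 (-0.50, adjusted p = 0.309), and 3 genes were lower without monosome 1 or without polysome 0. Bop1, of large subunit processing, stood at 7.96 and 8.06 FPKM in monosome and 73.7 and 46.7 FPKM in polysome RNA (2.73 ± 0.22), and Pes1 and Nolc1 differed by 2.09 ± 0.21 and 2.01 ± 0.20. Among 19 genes of elongation and termination, 9 were higher and 5 lower. The lower ones were the 4 abundant elongation factor genes given above and Eif5a2, at 11 and 10.3 against 1.7 and 1.67 FPKM (-2.12 ± 0.23). Among the higher ones were factors that release stalled or terminating ribosomes: Pelo (7.61 and 4.19 against 38.4 and 24.6 FPKM, 2.25 ± 0.26), Gspt1, the termination factor eRF3 (1.75 ± 0.18), and Gtpbp1 (2.23 ± 0.23), together with Eef2k, the kinase that inhibits Eef2 (2.04 ± 0.20). The median of these 19, 0.04, was -0.20 after median ratio rescaling and 0.64 without monosome 0.

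Proteins that fold and degrade proteins were among the groups highest in polysome RNA. Of 34 proteasome genes, 30 were higher and none lower, with a median of 2.09. Psmd2, of the regulatory particle, had 25.6 and 23.3 FPKM in monosome 0 and 1 and 239 and 185 FPKM in polysome 0 and 1 (3.05 ± 0.20, adjusted p = 4.06e-07). Psmc4, an ATPase of its base, had 46.6 and 27.1 FPKM in monosome and 389 and 217 FPKM in polysome RNA (adjusted p = 1.34e-06), Psmb5, a catalytic subunit of the core, 68.2 and 34.1 FPKM in monosome and 483 and 284 FPKM in polysome RNA (2.91 ± 0.32), and Psmd12 and Psmc5 differed by 2.70 ± 0.24 and 2.89 ± 0.28. In each, the lower polysome library stood above the higher monosome library. The 4 not called were Psma7 (0.71), Psma3 (0.46), Psmb1 (0.41) and Psmd8 (-0.49). Without monosome 1 Psmd8 was lower (-1.08, adjusted p = 0.00252) and Psmb1 higher (0.65, adjusted p = 0.0373), and without monosome 0 Psma7 and Psma3 were higher (1.38, adjusted p = 0.00242, and 0.79, adjusted p = 0.013). The median length of these proteins was 316 residues; of all 1733 tested genes that encode 301 to 400 residues, 36% were higher and 22.2% lower, with a median of 0.25. Of 20 chaperone genes 15 were higher and 1 lower, with a median of 1.45. The cytosolic chaperonin subunits Cct3, Cct8, Cct7 and Cct6a, which fold actin and tubulin, differed by 2.58 ± 0.26, 2.51 ± 0.27, 2.43 ± 0.29 and 2.40 ± 0.32, while Tcp1, of the same ring, stood at 226 and 278 FPKM in monosome and 345 and 188 FPKM in polysome RNA (0.02, not called). Hspe1, the mitochondrial cochaperonin of 102 residues, was the lower one (785 and 536 against 253 and 139.9 FPKM, -1.78 ± 0.32), and its partner Hspd1, of 573 residues, was higher (1.45 ± 0.25).

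Glycolytic enzymes and nuclear RNA-binding proteins showed the same direction. Of 17 glycolysis genes 14 were higher and none lower, with a median of 1.88. Eno1, an enolase, went from 85.7 and 79 FPKM in monosome 0 and 1 to 1039 and 496 FPKM in polysome 0 and 1 (3.11 ± 0.37), Aldoc, the brain aldolase, from 38 and 40.5 to 304 and 308 FPKM (2.93 ± 0.30), and Pkm2, the pyruvate kinase, from 279 and 189 to 1571 and 1043 FPKM (2.47 ± 0.30). The rate-controlling Pfkm differed by 1.88 ± 0.22. Pfkp, Gpi1 and the neuronal enolase Eno2 were not called (0.50, 0.54 and 0.44), although Pfkp was higher without polysome 0 (0.71, adjusted p = 0.0354) and Gpi1 without polysome 1 (1.04, adjusted p = 0.0138). Of 27 hnRNP genes, whose products bind nascent transcripts and regulate splicing, 21 were higher and none lower (1 without monosome 1), with a median of 1.53. Besides Hnrnpa2b1, Hnrnpul2, Hnrnpm and Hnrnpa3 differed by 2.47 ± 0.19, 2.20 ± 0.20 and 2.26 ± 0.22. Of 20 SR splicing factors 10 were higher and 2 lower (1 without monosome 1), with a median of 0.66 (0.39, with 4 lower, after median ratio rescaling and 1.03 without monosome 0): Srsf2 and Srsf3 were higher (2.71 ± 0.32 and 2.17 ± 0.25), as were Rsrc1 and Srsf7 (1.80 ± 0.20 and 2.21 ± 0.31), and Srsf9 was lower, at 306 and 169 against 67.5 and 64.2 FPKM (-1.77 ± 0.30).

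Several complexes were split between the fractions, and the members lower in polysome RNA encoded the shorter proteins at the median. The same held over all genes tested, with median lengths of 510 residues for higher and 285 for lower genes. It did not hold in each group: the lengths were 286 and 437 residues for the other terminal oligopyrimidine mRNAs. They were 568 and 673 residues for transcription factors of cortical neurons. The mitochondrial ribosome had 27 of 76 genes higher and 21 lower (12 without monosome 0 and 13 without polysome 1), with median protein lengths of 295 and 142 residues. Mrpl52, of 121 residues, had 295 and 317 FPKM in monosome 0 and 1 and 53.1 and 49.2 FPKM in polysome 0 and 1 (-2.56 ± 0.23), and Mrps31, of 384 residues, 4.11 and 3.89 FPKM in monosome and 19.2 and 17.3 FPKM in polysome RNA (1.95 ± 0.21). Mrps24 and Mrpl30 were lower as well (-3.08 ± 0.30 and -2.25 ± 0.25). The median of the group, 0.16, was -0.11 after median ratio rescaling and between -0.35 and 0.62 without a single library, so the group as a whole had no stable direction. Its shares of 35.5% higher and 27.6% lower compare with 32.6% and 20.7% of all genes, so a split alone does not set it apart. In the nuclear-encoded respiratory chain, 18 of 76 genes were higher (23.7%) and 28 lower (36.8%), with median lengths of 351 and 101 residues. The median difference was -0.23 (0.17 without monosome 0 and -0.60 without monosome 1). Sdha, the catalytic subunit of complex II, stood at 15.2 and 11.5 FPKM in monosome and 84.9 and 66.5 FPKM in polysome RNA (2.42 ± 0.22), and Ndufv1, Ndufa9 and Ndufs1 of complex I were higher (2.45 ± 0.23, 2.69 ± 0.29 and 1.96 ± 0.21). Cox8a, of 69 residues, stood at 1071 and 829 FPKM in monosome and 213 and 56.9 FPKM in polysome RNA (-3.08 ± 0.41), and Atp5e, of 52 residues, differed by -2.73 ± 0.34. Atp5b, of the same ATP synthase and with 529 residues, was higher (2.68 ± 0.30). Cox8a, Atp5e and Atp5b were chosen after their values were seen.

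The same division was measured in complexes of the nucleus and cytoplasm. Of 22 genes grouped as Sm and LSm proteins, 7 were higher (median length 225 residues) and 10 lower (94 residues). The group holds small ring proteins of the spliceosome and of mRNA decay, and also proteins outside these rings, such as Snrpc. Lsm12, Lsm1 and Lsm5 were lower (differences of -2.27 ± 0.29, -2.44 ± 0.32 and -2.94 ± 0.41), and Snrpc was higher (2.11 ± 0.31). The split by length is therefore not one of ring proteins alone. Of 12 subunits of RNA polymerase II, 2 were higher and 5 lower: Polr2b, the second largest subunit, had 5.27 and 5.37 FPKM in the monosome libraries and 15.9 and 38 FPKM in the polysome libraries (2.02 ± 0.32), and Polr2g was also higher (1.32 ± 0.27). Polr2l, of 67 residues, had 80.6 and 67.3 FPKM in monosome and 17.8 and 9.88 FPKM in polysome RNA (-2.39 ± 0.37), with Polr2j also lower (-1.87 ± 0.35). Of 31 kinesin and dynein genes, 16 were higher (9 without polysome 1) and 5 lower. The 5 lower ones were dynein light chains of 89 to 116 residues (Dynlt3, Dynlt1b, Dynlrb1, Dynll1 and Dynll2, with differences of -1.42, -1.68, -1.57, -1.46 and -1.32), and the light intermediate chain Dync1li1 was higher (10.9 and 10.9 against 34.7 and 37.9 FPKM, 1.65 ± 0.20), as were the kinesins Kif22, Kif20a and Kif21b (2.03 ± 0.25, 1.62 ± 0.21 and 2.29 ± 0.32). In the signal recognition particle, which brings ribosomes to the endoplasmic reticulum, Srp9, Srp14 and Srp19 were lower (-2.82 ± 0.56, -1.89 ± 0.34 and -2.70 ± 0.26) and Srp68 and Srp72 higher (2.05 ± 0.20 and 1.06 ± 0.24). Of 31 genes of that pathway 15 were higher (8 without polysome 0) and 9 lower. In the cytoskeleton, Actb (353 and 251 against 2146 and 1728 FPKM, 2.69 ± 0.32) and the tubulins Tubb4b and Tubb4a (2.81 ± 0.30 and 2.30 ± 0.28) were higher and the actin-binding thymosin Tmsb10, of 44 residues, lower (3382 and 4084 against 673 and 309.6 FPKM, -3.02 ± 0.35). Of 19 genes of that group 12 were higher and 3 lower. Of all genes 32.6% were higher and 20.7% lower. The shares were 31.8% and 45.5% for Sm and LSm proteins and 16.7% and 41.7% for RNA polymerase II. They were 51.6% and 16.1% for kinesins and dyneins, 48.4% and 29% for the endoplasmic reticulum pathway and 63.2% and 15.8% for the cytoskeleton. The light chains, signal recognition particle members and splits by length were singled out after their values were seen.

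**Figure D3:**
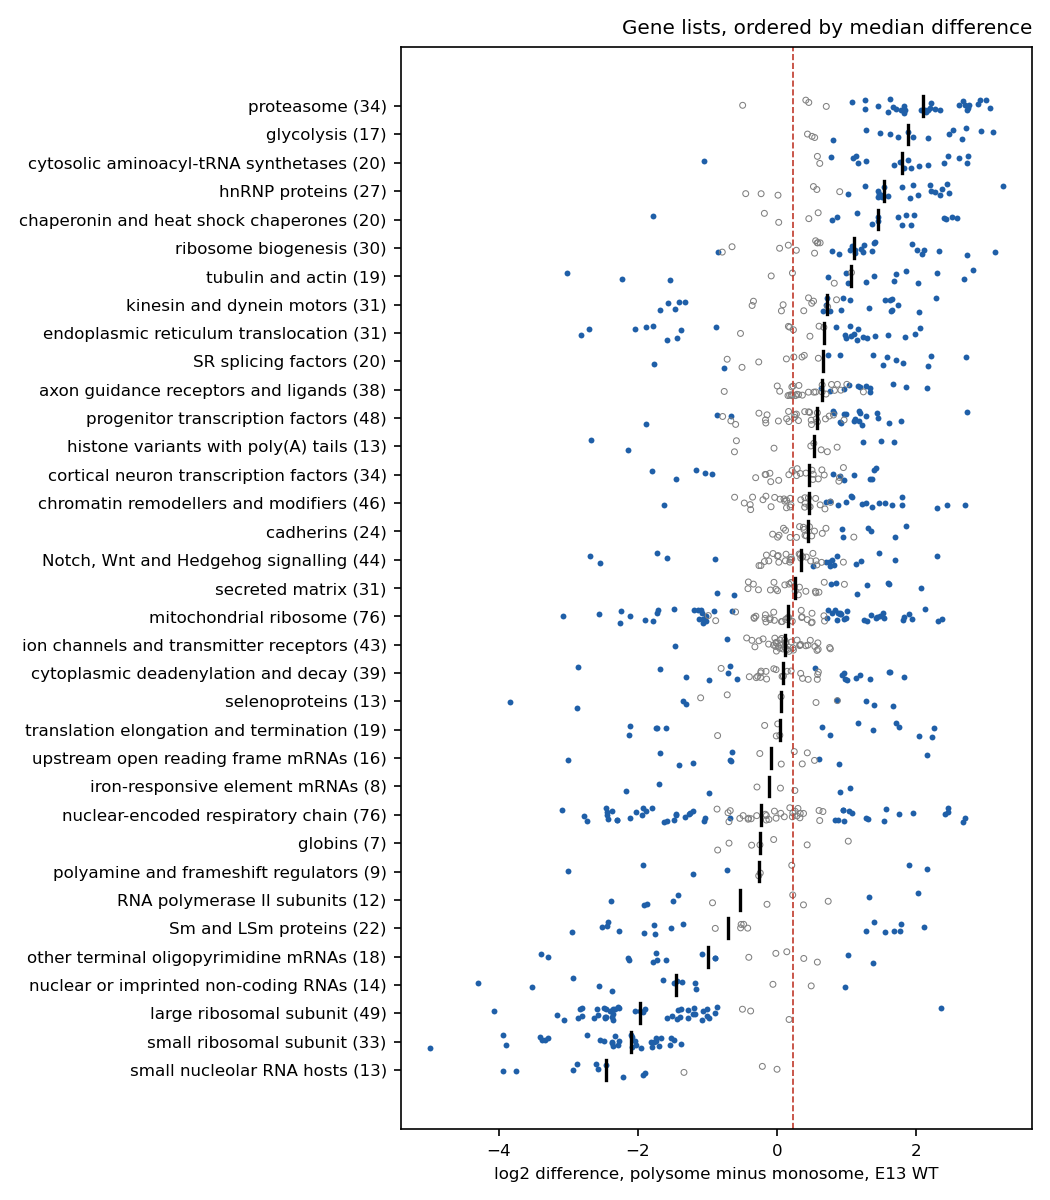
The log2 difference of each tested member (x axis) of 35 gene groups (y axis, with the number tested), ordered by median. Filled points passed the test, open ones did not, black bars are medians and the dashed line is the median of all genes, 0.24. The proteasome, glycolysis and aminoacyl-tRNA synthetase groups stand at the top, ribosomal proteins and non-coding host genes at the bottom, and the mitochondrial ribosome and respiratory chain spread over both sides.

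Over all genes the difference followed protein length up to about 1000 residues and not beyond. Lengths were taken from the coding region of the principal GENCODE M21 transcript of 11674 genes. Of 255 genes that encode up to 100 residues, 5 were higher and 180 lower (70.6%), with a median of -1.57. The median was -0.82 for 101 to 150 residues (582 genes), 0.11 for 201 to 300 (1632 genes), 0.44 for 501 to 600 (1241 genes) and 0.57 for over 800 and up to 1000 residues (909 genes, 43.9% higher and 5.5% lower). For longer proteins it was lower again: 0.32 for 1501 to 2000 residues (324 genes), 0.19 for 2001 to 3000 (200 genes) and 0.03 above 3000 (58 genes, of which 2 were higher and 1 lower). The median above 3000 residues lay between -0.33 (without polysome 1) and 0.33 (without polysome 0) when a library was left out, and that of over 800 and up to 1000 residues between 0.42 and 0.66. The latter was 0.75 with a pseudocount of 0.1 FPKM and 0.30 with 5 FPKM. Across genes, Spearman's rho with protein length was 0.27 (0.26 without ribosomal protein genes), and it was 0.16 without monosome 0, 0.37 without monosome 1, 0.35 without polysome 0 and 0.18 without polysome 1. Genes are not independent replicates. The number of exons had a rho of 0.28. Lengths of the 5′ and 3′ untranslated regions had a rho of -0.05 and -0.04, and the level in total RNA one of 0.04.

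**Figure D4:**
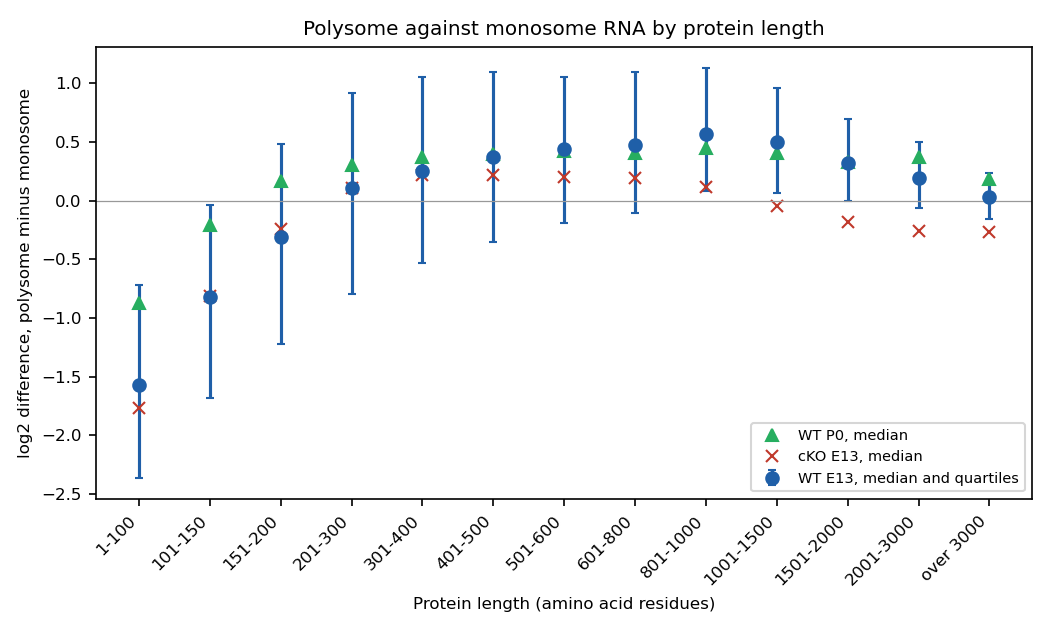
Median log2 difference between polysome and monosome RNA (y axis) by protein length in residues (x axis). Circles with bars are the median and quartiles of genes in WT E13, triangles the medians in WT P0 and crosses those in the E13 libraries labelled cKO. The WT E13 median climbs from -1.57 to 0.57 at over 800 and up to 1000 residues and is 0.03 above 3000 residues.

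Long non-coding RNAs lay mostly with the monosome RNA. Of 89 tested lincRNAs 66 were lower and none higher, with a median of -1.28, against 2287 lower and 3921 higher of 11675 protein-coding genes (median 0.27). In a group of 13 made up mostly of host genes of small nucleolar RNAs, whose introns hold those RNAs, 10 were lower. The other three, not called, were Snhg11, annotated with a protein of 87 residues, Snhg9, listed at 0 in the 4 libraries, and Rpph1, the RNA of RNase P (-1.34). Snhg6 had 219 and 167 FPKM in monosome 0 and 1 and 30.7 and 3.98 FPKM in polysome 0 and 1 (-3.94 ± 0.60), and Gas5 and Snhg4 differed by -2.92 ± 0.40 and -2.88 ± 0.37. Of 14 nuclear or imprinted non-coding RNAs 11 were lower and 1, Peg13, higher (16.7 and 7.07 against 18.3 and 27.8 FPKM, 0.98 ± 0.31). Peg13 was not called without monosome 1 (0.41, adjusted p = 0.218) or polysome 1 (0.69, adjusted p = 0.135). Tug1 was at 39.97 and 49.99 FPKM in monosome and 42.9 and 42.9 FPKM in polysome RNA (-0.06, not called).

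Groups of mRNAs with a known control element in the transcript held members called in both directions, and their medians lay below the 0.24 of all genes. The medians were -0.09 for upstream open reading frames, -0.26 for the polyamine pathway, -0.12 for iron-responsive elements and 0.06 for selenoproteins. Of these small groups 43.8%, 44.4%, 37.5% and 30.8% were lower, against 20.7% of all genes. Higher were 18.8%, 22.2%, 25% and 30.8%, against 32.6%. The groups are not separate: Amd1 and Azin1 are members of both the upstream open reading frame and the polyamine group. Lower members had median protein lengths of 349, 280, 183 and 199 residues, against 285 for all lower genes. Higher members had 697, 412, 684 and 513 residues, against 510 for all higher genes. Among 16 mRNAs with regulatory upstream open reading frames, 3 were higher and 7 lower, with a median of -0.09 (-0.38 after quantile normalization and 0.06 without the filter on low values). Atf4, the transcription factor of the integrated stress response, had 287 and 184 FPKM in the monosome libraries and 101 and 49.9 FPKM in the polysome libraries (-1.68 ± 0.31), and its target Ddit3 18 and 23.5 FPKM in monosome and 8.69 and 5.74 FPKM in polysome RNA (-1.41 ± 0.27). Ppp1r15b, a phosphatase subunit that ends that response, was higher (20.1 and 13.8 against 39.99 and 25.1 FPKM, 0.89 ± 0.24), but not without monosome 1 (0.63, adjusted p = 0.0595) or polysome 0 (0.56, adjusted p = 0.0838). The 7 lower genes were 3 without monosome 0 and 4 without polysome 0, and 3 without the filter on low values; the 3 higher ones were 1 without monosome 1. In the polyamine pathway, with 2 of 9 genes higher (4 without monosome 0) and 4 lower, Azin1, the antizyme inhibitor, was higher (15.7 and 14.5 against 73.4 and 67.3 FPKM, 2.15 ± 0.19), while the enzyme Odc1 (478 and 369 against 171 and 191 FPKM, -1.21 ± 0.31) and the antizymes Oaz1 and Oaz2 (-1.92 ± 0.36 and -0.72 ± 0.22) were lower. Amd1, at 0.00233 and 12 FPKM in polysome 0 and 1 against 44.8 and 17.2 FPKM in monosome RNA, had -3.00 ± 1.14 (adjusted p = 0.0364) and passed no test without monosome 0 (-2.33, adjusted p = 0.197) or polysome 0 (-1.16, adjusted p = 0.445). Peg10, a retrotransposon-derived gene read by frameshifting, was higher at 2.62 and 2.65 against 12.9 and 12.2 FPKM (1.90 ± 0.32).

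Of 8 mRNAs with an iron-responsive element, 3 were lower and 2 higher. The ferritin subunits, whose translation the iron regulatory proteins block from the 5′ untranslated region, were lower: Ftl1 stood at 3703 and 1524 FPKM in monosome and 512 and 542 FPKM in polysome RNA (-2.17 ± 0.37) and Fth1 at 1113 and 473 FPKM in monosome and 246 and 202 FPKM in polysome RNA (-1.70 ± 0.36). Both ferritin proteins are short, at 183 and 182 residues, and of all 753 genes encoding 151 to 200 residues 38.6% were lower. Slc40a1, the iron exporter, was lower (-0.98 ± 0.24), the erythroid Alas2 higher (1.05 ± 0.24), and the transferrin receptor Tfrc, which carries its elements in the 3′ untranslated region, stood at 8.73 and 12.7 FPKM in monosome and 10.6 and 11.3 FPKM in polysome RNA (0.05, not called). Of 13 selenoprotein genes, in which a stop codon is read as selenocysteine, 4 were higher and 4 lower: Sepw1 and Gpx4 (642 and 546 against 111 and 57.8 FPKM, -2.87 ± 0.31) were lower and the thioredoxin reductases Txnrd2 and Txnrd3 higher (1.39 ± 0.29 and 1.28 ± 0.20).

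Transcription factors of cortical development held members called in both directions. Of progenitor factors 37.5% were higher and 6.25% lower, and of neuron factors 23.5% and 14.7%, against 32.6% and 20.7% of all genes. The shares of neuron factors lay below those of all genes in both directions. Of 48 transcription factors of progenitors 18 were higher and 3 lower (5 without monosome 1), with a median of 0.57. After median ratio rescaling 11 were higher and 6 lower, with a median of 0.33. Sox3 had 9.14 and 7.82 FPKM in monosome 0 and 1 and 76.2 and 50.1 FPKM in polysome 0 and 1 (2.73 ± 0.32), Neurog1, a proneural factor, 6.79 and 5.98 FPKM in monosome and 16.3 and 15.1 FPKM in polysome RNA (1.18 ± 0.19), and Sall2 and Dach1 differed by 1.22 ± 0.19 and 1.18 ± 0.26. Among the lower ones, Hmga1 and Id2 differed by -1.88 ± 0.42 and -0.87 ± 0.26, and Id2 was not called without monosome 0 (-0.60, adjusted p = 0.0804). Of 34 factors of cortical neurons 8 were higher (5 without polysome 1, 13 without polysome 0 and 4 after quantile normalization) and 5 lower. Tbr1 and Pou3f3 were higher (12.2 and 17.9 against 33.6 and 48.4 FPKM, 1.39 ± 0.27, and 1.37 ± 0.23). Cux1, a factor of upper-layer identity, was lower (119 and 189.8 against 41.5 and 43.3 FPKM, -1.80 ± 0.24), as were Lmo4 (-1.45 ± 0.29), Foxp1 (-0.94 ± 0.20), Fezf2 (99.6 and 75.2 against 36.9 and 47.5 FPKM, -1.03 ± 0.24) and Foxp2 (-1.17 ± 0.31). Foxp2 was not called without monosome 1 (-0.59, adjusted p = 0.093) or polysome 0 (-0.80, adjusted p = 0.0717). These proteins are not all short, Cux1 having 1426 and Foxp2 714 residues. The group's median of 0.46 was -0.11 without polysome 1 and 0.80 without polysome 0. Members beyond the 4 smallest adjusted p-values in each group were named after their values were seen.

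Signalling mRNAs of 44 Notch, Wnt and Hedgehog genes were higher for 12 (27.3%, against 32.6% of all genes) and lower for 5 (11.4%, against 20.7%). The share higher was 31.6% for axon guidance, 25% for cadherins, 0% for ion channels and receptors and 22.6% for secreted matrix. For chromatin regulators it was 37%, for deadenylation and decay 28.2% and for histone variants 23.1%. Only the chromatin share lay above that of all genes. Ctnnb1, the Wnt effector beta-catenin, had 115 and 87.2 FPKM in monosome RNA and 647 and 382 FPKM in polysome RNA (2.30 ± 0.29). The Fringe glycosyltransferases of the Notch receptor, Rfng and Mfng, were lower: Rfng at 39.4 and 59.4 against 8.5 and 5.2 FPKM (-2.69 ± 0.27) and Mfng at 161 and 201 against 34.8 and 25.6 FPKM (-2.55 ± 0.27). Dvl1 was lower and Dvl2, a second Dishevelled, higher (-1.58 ± 0.22 and 1.70 ± 0.27), and the Hedgehog transducer Smo and the ligand Wnt7b were lower (-1.73 ± 0.29 and -0.89 ± 0.24), Wnt7b not without monosome 0 (-0.59, adjusted p = 0.0622). Of 38 axon guidance genes 12 were higher and none lower (1 without polysome 1), with a median of 0.65 (0.25 without polysome 1 and 0.98 without monosome 1). The ephrin Efnb1 (25.3 and 30.3 against 142 and 112 FPKM, 2.15 ± 0.24) and the semaphorin receptor Plxnb2 (1.86 ± 0.33) led them, with Unc5b and Sema4d at 1.33 ± 0.26 and 1.16 ± 0.28. Of 24 cadherins 6 were higher (2 without monosome 0) and none lower, with the planar polarity cadherin Celsr1 at 1.86 ± 0.31 and Pcdhgc3 at 1.69 ± 0.31. Of 46 chromatin regulators 17 were higher (27 without polysome 0) and 1, Chd2, lower (2 genes without monosome 0 or polysome 1). Chd2 stood at 10.7 and 21.5 against 3.14 and 5.76 FPKM (-1.62 ± 0.29), the demethylase Kdm1a stood at 27.8 and 26.2 FPKM in monosome and 151 and 123 FPKM in polysome RNA (2.29 ± 0.20) and the remodeller subunit Smarcb1 at 2.70 ± 0.32. Of 43 ion channel and receptor genes none was higher and 2 were lower (1 without monosome 1 or polysome 0), with Gabra5, a GABA-A receptor subunit, at -0.72 ± 0.27 (adjusted p = 0.0372). Gabra5 was not called without monosome 1 (-0.51, adjusted p = 0.201) or polysome 0 (-0.48, adjusted p = 0.237), and without monosome 0, monosome 1 or polysome 0 a channel gene was higher. Of 31 secreted matrix genes 7 were higher (3 without monosome 0 or polysome 1) and 2 lower (1 without monosome 0, polysome 0 or polysome 1), with Sparc, a secreted glycoprotein, at 2.07 ± 0.39. Of 39 genes of mRNA deadenylation and decay 11 were higher and 7 lower (4 without polysome 0). Cnot7, a deadenylase, had 91.6 and 149 FPKM in the monosome and 14.1 and 16.4 FPKM in the polysome libraries (-2.87 ± 0.27), while Parn, another deadenylase, and Cnot3, a subunit of the CCR4-NOT deadenylase complex, were higher (1.83 ± 0.20 and 1.61 ± 0.19). Of 13 histone variant genes 3 were higher (6 without monosome 0) and 2 lower (4 without monosome 1), H2afv falling from 646 and 496 to 127 and 60.6 FPKM (-2.67 ± 0.32).

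Markers of the cells in the dissected tissue were present in both fractions. Neuronal markers summed to 423 to 644 FPKM in monosome and 949 to 1423 FPKM in polysome RNA, and those of radial glia and intermediate progenitors to 957 to 1030 and 1619 to 1922 FPKM. Tubb3, of young neurons, stood at 183 and 190.3 FPKM in monosome and 633 and 723 FPKM in polysome RNA, and Pax6, of cortical progenitors, at 42.3 and 34.3 FPKM in monosome and 77.5 and 67.7 FPKM in polysome RNA. Not all neuronal markers followed Tubb3: of 8 tested, 4 were higher and 1 lower (-1.15). Their median of 0.625 was -0.047 without polysome 1. Of 9 progenitor markers 7 were higher and none lower. Markers of endothelium and pericytes (18.2 to 22.5 and 43.7 to 51.5 FPKM), microglia (11 to 12.7 and 27.9 to 35.9 FPKM) and meninges (14.1 to 22.3 and 60.2 to 62.3 FPKM) were also higher in polysome RNA in sum. Markers of the ganglionic eminence, which borders the neocortex, summed to 1.13 to 6.57 and 0.577 to 7.23 FPKM, Gsx2 being at 0 in both monosome libraries. Blood markers summed to 4337 to 4877 FPKM in monosome RNA and to 2344 to 8089 FPKM in polysome RNA. None of the 7 globin genes passed the test (2 were higher without polysome 1 and 2 lower without polysome 0), Hbb-y having 3824 and 3824 FPKM in monosome and 6562 and 2083 FPKM in polysome RNA (-0.05), and the part of these cells in the gene groups above was not tested. In bulk RNA, fewer cells of a type and less RNA per cell cannot be told apart.

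The same contrast at birth gave a similar picture with 513 genes (4.23%) whose difference changed with age. At P0, with 3 libraries a fraction, 4793 genes were higher (39.5%) and 2462 lower (20.3%), 59.8% in all. Across 12123 genes the E13 and P0 differences, which share no library, correlated at a Pearson r of 0.829 and a Spearman rho of 0.797. Of the 513 genes, 147 had a higher difference at E13 (1.21%) and 366 a lower one (3.02%), so that 28.7% were higher at E13, against 39.3% after median ratio rescaling and 45.5% after quantile normalization. The count of 513 depended on single libraries: it was 113 without monosome 0, 1927 without monosome 1, 112 without polysome 0 and 1124 without polysome 1 of E13. It was 251, 172 and 113 without P0 monosome 0, 1 and 2, and 222 and 193 without P0 polysome 1 and 2.

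Among genes with a larger difference at E13, Bgn, a matrix proteoglycan, had 22.7 and 28.1 FPKM in the E13 monosome and 45.2 and 26.2 FPKM in the E13 polysome libraries, against 44.6, 41 and 51 and 13.5, 7.19 and 6.61 FPKM at P0. Its difference was 0.43 at E13 and -2.26 at P0 (change 2.70 ± 0.41, adjusted p = 0.00427). Adss, of purine synthesis, had 28.4 and 35.6 FPKM in monosome and 57.1 and 45 FPKM in polysome RNA at E13, and 106, 147 and 129 FPKM and 41.5, 38.4 and 44.6 FPKM at P0 (change 2.24 ± 0.29, adjusted p = 0.00209). In Adss the polysome libraries were the higher ones at E13 and the lower ones at P0. Zc3h7b changed by 2.09 ± 0.26, Skp2, a ubiquitin ligase subunit of the cell cycle, by 2.16 ± 0.43, Alas2 by 2.24 ± 0.31 and the syntaxin Stx3 by 2.49 ± 0.51. Stx3 lost its call without monosome 0 (2.69, adjusted p = 0.0528), polysome 0 (2.10, adjusted p = 0.0817) or P0 monosome 2 (2.41, adjusted p = 0.0524), and Skp2 without polysome 0 (1.77, adjusted p = 0.0758). Among genes with a lower difference at E13, Basp1, a membrane protein of growth cones, had 293 and 245 FPKM in monosome and 119 and 251 FPKM in polysome RNA at E13, and 221, 217 and 176 FPKM and 733, 888 and 955 FPKM at P0 (change -2.69 ± 0.39, adjusted p = 0.00343). Its fractions overlapped at E13 and were apart at P0. Prrt2, a presynaptic protein, changed by -2.47 ± 0.30, Marcksl1 by -2.46 ± 0.40 and Mlf2 by -2.28 ± 0.44, the last not called without polysome 0 (-2.15, adjusted p = 0.0576). Hsd3b6, at 11.5 and 10.6 FPKM in monosome and 2.17 and 0.69 FPKM in polysome RNA at E13, was at or near 0 in all 6 P0 libraries. Eef1a1 was listed at 0 in all 3 P0 monosome libraries and at 2447, 2578 and 2251 FPKM in the P0 polysome libraries, so no fold is given for it.

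The E13 libraries labelled cKO, with 3 columns a fraction that were scaled in a separate table, gave 2797 genes higher (22.7%) and 2751 lower (22.4%) of 12302, 45.1% in all. Across 12001 genes the differences of WT and of the libraries labelled cKO correlated at a Pearson r of 0.911 and a Spearman rho of 0.890. The globins stood apart: 6 of 7 were higher in the libraries labelled cKO, with a median of 2.08, against -0.25 in WT. Their median WT minus cKO change was -2.33, and none of these changes was called. The cause was not tested. The change of the difference between genotypes was called for 1 of 12233 genes (0.00817%, limma; 1366 at an unadjusted p under 0.05), and that gene was Elavl1 itself. In WT it had 42.4 and 13.5 FPKM in monosome 0 and 1 and 60.6 and 42.4 FPKM in polysome 0 and 1 (1.05 ± 0.37, adjusted p = 0.0272); in the libraries labelled cKO the monosome columns had 83.9, 80.03 and 82 FPKM and the polysome columns 28.3, 29.9 and 30.00 FPKM (-1.45 ± 0.21). Elavl1 was not low in the monosome libraries labelled cKO, as far as separately scaled tables can be set side by side, and the deleted part of the gene is not stated in the labels. The change was 2.50 ± 0.42 (adjusted p = 0.0258), and the WT value alone was not called without monosome 1 (0.26, adjusted p = 0.48) or polysome 0 (0.79, adjusted p = 0.169) or after median ratio rescaling (0.78, adjusted p = 0.0797). The count of 1 was 0 without WT monosome 1, WT polysome 0, or columns c0 of the monosome or c0 or c2 of the polysome libraries labelled cKO; it was 15 without monosome column c1, 3 without monosome column c2 and 334 without polysome column c1.

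**Figure D5:**
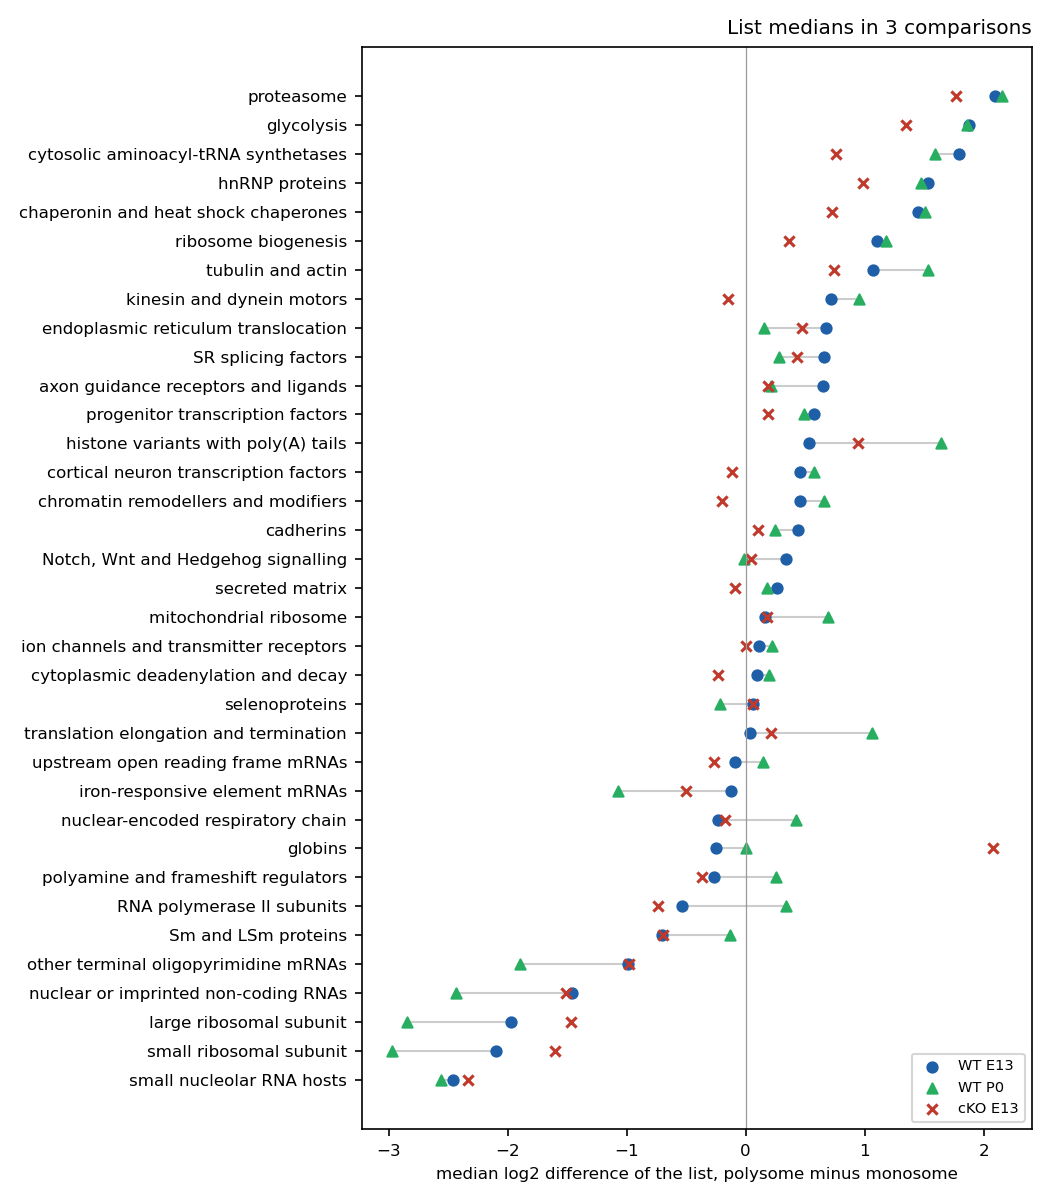
Median log2 difference between polysome and monosome RNA (x axis) of 35 gene groups (y axis, in the order of the WT E13 medians) in WT E13 (circles), WT P0 (triangles, joined to the circles) and the E13 libraries labelled cKO (crosses). Proteasome, glycolysis and hnRNP groups stand at similar values in WT at both ages, and the small ribosomal subunit is at -2.10 at E13 and -2.97 at P0.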

How the data were processed

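RNA of 31 libraries was measured by the submitters as RNA-seq, and the 15 libraries of the WT table were fitted here. The authors deposited FPKM values per gene; reads were processed with TopHat2 2.0.6, Bowtie2 2.0.5.0 and Cuffdiff on mm10 (GRCm38), per the submitters' processing notes. The total number of fragments per library is unknown, so no counting interval can be given. Of 23284 listed names, 26 that are bare numbers were left out.

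Genes with a mean of at least 1 FPKM over the 15 libraries were tested on log2(FPKM + 1) with limma 3.58.1 (R 4.3.3), moderated variances with an intensity trend, 6 groups sharing 1 spread, and Benjamini-Hochberg adjustment over all genes. Calls were made under an adjusted p of 0.05. The code was tested on simulated data. Labels give columns of the cKO table only a group, not a sample. The differences of WT and of the libraries labelled cKO were compared in 1 fit of 12 groups over 31 libraries.

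Named genes were the 15 each way with the largest difference among called genes with at least 5 FPKM in a group, no overlap and 1 direction without each library; up to 6 each way for changes with age or genotype; and up to 4 per gene group by adjusted p (5 groups may be named in full). Further genes, such as complex subunits, were chosen after their values were seen. The comparison, the 43 gene groups (1014 members tested) and the rules were chosen with earlier results of these data known. Protein lengths are from GENCODE M21 and start sites from RefSeq (GRCm38.p6). Alternatives were other pseudocounts, filters, scalings, library subsets, a replicate block and leaving out each library; the fit without genes listed at 0 and some settings of the length relation were chosen after seeing the data. Some genes are not reported here.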

Additional observations from a re-analysis of the deposited data

Results flagged for a closer look

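Each gene here differed in its polysome against monosome difference between E13 and P0 (WT), or between WT and the libraries labelled cKO, by a test of the change itself (limma, Benjamini-Hochberg adjusted p under 0.05). No cause was tested.

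Higher changes at E13 were 2.70 ± 0.41 for Bgn, 2.49 ± 0.51 for Stx3, 2.24 ± 0.31 for Alas2, 2.24 ± 0.29 for Adss, 2.16 ± 0.43 for Skp2 and 2.09 ± 0.26 for Zc3h7b. Among genes of the described groups, the iron exporter Slc40a1 had -0.98 at E13 and -2.83 at P0 (change 1.85 ± 0.31), Sox3 2.73 and 1.01 (change 1.73 ± 0.41), Dvl2 1.70 and 0.33 (change 1.37 ± 0.35), Cdc45 2.92 and 1.57 (change 1.35 ± 0.34), Neurog1 1.18 and 0.02 (change 1.16 ± 0.25) and Kif20a 1.62 and 0.52 (change 1.10 ± 0.27).

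Lower changes at E13 were -2.69 ± 0.39 for Basp1, -2.47 ± 0.30 for Prrt2, -2.46 ± 0.40 for Marcksl1, -2.37 ± 0.38 for Hsd3b6 and -2.28 ± 0.44 for Mlf2. Hsd3b6 was at or near 0 in the P0 libraries of both fractions. Its fitted change therefore only restates its E13 difference of -2.38 and shows no measured difference at P0. Id2, an inhibitor of proneural factors, had -0.87 at E13 and 1.28 at P0 (change -2.15 ± 0.33), Lmo4 -1.45 and 0.38 (change -1.82 ± 0.37), Psmd8 -0.49 and 1.08 (change -1.57 ± 0.39) and Wnt7b -0.89 and 0.28 (change -1.18 ± 0.31). The fitted change of Eef1a1, -12.97 ± 0.37, rests on a listing at 0 in all 3 P0 monosome libraries and is not a measured fold.

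Cdc45, Dvl2, Kif20a, Lmo4, Mlf2, Neurog1, Psmd8, Skp2, Sox3, Stx3 and Wnt7b lost their calls without polysome 0 of E13 (adjusted p from 0.0576 for Mlf2 to 0.122 for Cdc45), and Cdc45, Dvl2, Kif20a, Neurog1, Psmd8, Sox3, Stx3 and Wnt7b also without monosome 0 (adjusted p from 0.0521 for Neurog1 to 0.174 for Dvl2). Dvl2 was not called in 14 of 19 alternatives, Cdc45 and Wnt7b in 12, Kif20a in 10, Sox3 in 9, Psmd8 in 8 and Neurog1 in 7 of 17. For Cdc45, Dvl2 and Kif20a these included leaving out any 1 of the 6 P0 fraction libraries, and for Dvl2 and Wnt7b also leaving out polysome 1 of E13. Both rescalings ended the calls of Cdc45, Dvl2, Neurog1 and Wnt7b, and quantile normalization those of Kif20a and Sox3. A pseudocount of 0.1 FPKM ended the calls of Cdc45, Dvl2, Kif20a, Neurog1, Sox3 and Wnt7b. Their adjusted p then ran from 0.0591 for Wnt7b to 0.482 for Sox3 (limma), so these changes depend on how low values are handled. The change of Elavl1 between WT and the libraries labelled cKO was 2.50 ± 0.42. It was 1.70 (adjusted p = 0.215) without WT monosome 1, 2.24 (adjusted p = 0.0859) without WT polysome 0, and at an adjusted p of 0.0789 to 0.088 without monosome column c0 or polysome columns c0 or c2.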

How the results depend on the processing

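The counts of genes higher and lower in polysome RNA stayed within 1.5 times the reported 3951 and 2515 in each of 14 alternatives, between 2708 and 4175 higher and between 1782 and 3080 lower. Leaving out a library gave 3427 to 3849 higher and 2118 to 2714 lower. The lowest counts came from fitting the 4 libraries alone, with fewer samples to estimate the spread. Of 239 genes examined, 181 kept their call in every alternative and 3 took the opposite sign while called, all under quantile normalization: Hbb-y (1.86), Naca (0.57) and Rpl7a (1.28), none of which was called on the deposited scale; the cause was not tested. The number of genes whose difference changed between E13 and P0 was 306 with a pseudocount of 0.1 FPKM, 1091 with 5 FPKM, 499 without genes listed at 0 throughout a group, and 112 to 1927 when a library was left out. The share of these genes higher at E13 was 28.7%, against 40.5% with a pseudocount of 5 FPKM. The WT to cKO count was 0 after median ratio rescaling, 1 with a pseudocount of 0.1 FPKM, and, without a library, 0, 1, 3, 15 or 334. Spearman's rho with protein length was 0.332 with a mean of at least 5 FPKM and 0.159 to 0.366 without a library. The excess of start-site letters among lower over higher genes was 2.15 percentage points at the start and 1.11 within 10 bases. Replicate numbers are shared between groups. Same-numbered monosome and polysome libraries deviated together (r = 0.411), and neither did so with total RNA (-0.512 and -0.538). The labels tie the numbers to no animal, litter or day, and 2 libraries a fraction are too few to settle pairing from the values, so the reported fit has no block; a replicate block gave 4175 higher, 2638 lower and 582 changed with age. Depth is unknown, so what it limits cannot be given.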

Other observations

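Annotated classes of transcript other than lincRNAs did not all lie with monosome RNA. Of 62 tested genes annotated as antisense, 3 were higher in polysome RNA and 32 lower, with a median of -0.61, and of 79 processed transcripts 3 were higher and 45 lower (median -1.09), a class that also holds the gene of the chaperonin subunit Cct6a. All but 4 of 17 transcripts from bidirectional promoters were lower (13, median -1.33), and none was higher. Of 14 snoRNA genes 2 were lower and none higher (median 0.00). Among pseudogenes, 13 of 29 processed ones were lower and 3 higher (median -0.32), 5 of 14 transcribed processed ones lower and 2 higher (median -0.06), and 10 of 13 transcribed unprocessed ones lower and none higher (median -1.41); their reads can be shared with the parent genes. Whether the authors' counting used strand is not given in the sources used here, so reads of an antisense gene and its partner cannot be told apart.

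Among the cell type markers, 4 of 8 tested neuronal markers were higher in polysome RNA and 1 lower, 7 of 9 of radial glia and intermediate progenitors higher, 4 of 6 of endothelium and pericytes, 4 of 6 of microglia, 3 of 5 of meninges and 1 of 5 of blood higher, and none of the 5 tested ganglionic eminence markers was called. The higher neuronal markers were 2 without monosome 0 or polysome 1, those of progenitors 4 without monosome 1 or polysome 1, those of endothelium 2 without monosome 0 or polysome 1 and those of microglia 2 without monosome 1 or polysome 0. Of the blood markers 3 were higher without polysome 1 and 3 lower without polysome 0.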
